A study of Mus musculus with 20 samples.

Results

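The genes described here are the 4 adult globin genes Hbb-bs, Hbb-bt, Hba-a1 and Hba-a2 and the erythroid heme synthesis gene Alas2. They were taken by name, 5 of the 54532 genes in a table of read counts from mouse hypothalamus, and all 5 passed the filter on low counts in every comparison. The tissue came from male C57BL/6J mice and was flash-frozen, and perfusion is not mentioned in the sources used here. RNA was poly-A selected and the libraries were not strand-specific. The acute Gly-Low group held 4 libraries from 4-month-old mice given Gly-Low, a diet meant to lower glycation, for 1 week. The acute control group held 5 libraries from 4-month-old mice on the control diet for 1 week. The old Gly-Low group held 3 libraries from 25-month-old mice after 5 months of Gly-Low, and the old control group held 4 from 25-month-old mice after 5 months of control diet. The young control group held 4 libraries from 3-month-old mice after 1 week of control diet, so old and young controls differed in time on the diet as well as in age.

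Adult hemoglobin is built from alpha chains, encoded by Hba-a1 and Hba-a2, and beta chains, encoded in C57BL/6 mice by Hbb-bs and Hbb-bt, each chain holding a heme group. Alas2 is the erythroid form of 5-aminolevulinate synthase, the mitochondrial enzyme that starts heme synthesis, and the other form, Alas1, is made in most tissues. Red cells of mice have no nucleus, but young red cells, the reticulocytes, still carry globin mRNA. Bulk brain RNA can hold globin transcripts from blood in the vessels, and neurons and endothelial cells are also reported to make some globin mRNA. In bulk RNA, fewer cells of a type and less RNA per cell cannot be told apart.

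Hbb-bs (ENSMUSG00000052305) lies on chromosome 7 at 103826534 to 103828096 and Hbb-bt (ENSMUSG00000073940) at 103812524 to 103813996, both on the minus strand of GRCm38. Hba-a1 (ENSMUSG00000069919) lies on chromosome 11 at 32283511 to 32284465 and Hba-a2 (ENSMUSG00000069917) at 32296489 to 32297298, both on the plus strand. Alas2 (ENSMUSG00000025270) lies on the plus strand of chromosome X at 150547375 to 150570638, where Apex2 and Mir3620 overlap it on the other strand. Reads of Alas2 and of these 2 genes cannot be told apart by strand. No annotated gene overlaps the 4 globin genes.

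The copies of each pair are nearly the same in their coding parts, which is why each pair was also analysed as a sum. The coding sequences of Hbb-bs and Hbb-bt are 444 bases long and differ at 1 base (99.8% identity), and those of Hba-a1 and Hba-a2 are 429 bases long and also differ at 1 base (99.8% identity). The 60 coding bases around that difference are shown for each copy, 5′ to 3′ from the GENCODE transcripts of GRCm38, bases 385 to 444 of the beta and 351 to 410 of the alpha coding sequence, with the differing base in capitals.
Hbb-bs: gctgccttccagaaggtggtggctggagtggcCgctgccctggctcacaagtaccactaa
Hbb-bt: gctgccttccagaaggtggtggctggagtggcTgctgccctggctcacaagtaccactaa
Hba-a1: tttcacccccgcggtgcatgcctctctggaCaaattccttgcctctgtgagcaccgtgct
Hba-a2: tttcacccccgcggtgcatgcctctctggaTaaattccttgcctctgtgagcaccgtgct
Of all windows of 100 bases in the transcript, 62.6% of those of Hbb-bs, 54.8% of those of Hbb-bt, 56.5% of those of Hba-a1 and 74.5% of those of Hba-a2 also occur in the other copy. A read from such a window cannot be placed on 1 copy by its sequence alone. How the counting treated such reads is not known from the labels. The values of single copies are therefore uncertain, and the pair sums do not depend on how reads were split between copies, although reads left uncounted are missing from both. No window of Alas2 occurs in a transcript of another gene read in the same direction. Reverse complements were not searched, so sequence shared with Apex2 and Mir3620 on the other strand would not be seen.

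The stretches before 3 of the genes, which lie on separate chromosomes, are shown as background, and any part of these stretches in the levels was not tested. They are RefSeq sequences of GRCm38.p6, 5′ to 3′ on the gene's own strand. Capitals mark the motifs searched on both strands, GATAA (the core of sites bound by GATA factors), CACCC (the core of sites bound by Klf1 and related factors), CCAAT and TATAA. Of the 250 bases before the RefSeq start, only those before the GENCODE gene are printed, which are 82 bases for Hbb-bs at chr7:103828097-103828178, 247 for Hba-a2 at chr11:32296242-32296488 and 208 for Alas2 at chrX:150547167-150547374.
Hbb-bs: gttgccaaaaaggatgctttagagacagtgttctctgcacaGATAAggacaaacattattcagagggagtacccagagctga
Hba-a2: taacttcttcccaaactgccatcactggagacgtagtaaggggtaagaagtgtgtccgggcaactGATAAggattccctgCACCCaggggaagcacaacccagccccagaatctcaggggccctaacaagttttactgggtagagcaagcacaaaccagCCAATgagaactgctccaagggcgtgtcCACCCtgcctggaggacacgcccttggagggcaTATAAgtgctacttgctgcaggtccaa
Alas2: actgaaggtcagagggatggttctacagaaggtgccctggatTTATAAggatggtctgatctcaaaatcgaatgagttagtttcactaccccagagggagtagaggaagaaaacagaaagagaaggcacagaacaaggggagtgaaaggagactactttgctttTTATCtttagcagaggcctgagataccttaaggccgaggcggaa
Over the full 250 bases, the GATA, CACCC and TATA motifs were found at all 5 genes and the CCAAT motif at the 4 globin genes but not at Alas2. Among 32817 promoters of the same length, 22.6% held the GATA motif, 52.0% the CACCC motif, 33.8% the CCAAT motif and 22.8% the TATA motif, searched on both strands in the same way. The GATA motif began 209 bases before the start at Hbb-bs, 204 at Hbb-bt, 182 at Hba-a1, 185 at Hba-a2 and 86 at Alas2. Neighbouring capitals can belong to overlapping matches, as at Alas2, where 2 matches of the TATA motif share bases. The 2 alpha promoters share an unbroken stretch of 247 bases, against 14 bases for the 2 beta promoters.

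Total counts ran from 15848372 to 27399753 per library, and the 4 globin genes took 0.00673% to 0.329% of them. The acute groups differed in composition. Mitochondrially encoded transcripts made up 20.9% ± 2.73 of counts in acute Gly-Low (SD, n = 4), against 6.98% ± 1.46 in acute control (n = 5), and ribosomal protein genes made up 6.14% ± 1.35 in acute Gly-Low, against 1.95% ± 0.18 in acute control. The slope of a library's log2 level on log2 transcript length ran from -0.43 to -0.23 in acute Gly-Low, against 0.14 to 0.23 in acute control, so short transcripts were relatively more abundant in acute Gly-Low. The other groups varied within themselves. The slope ran from -0.27 to 0.22 in young control, -0.20 to 0.16 in old control and 0.079 to 0.29 in old Gly-Low. Mitochondrially encoded transcripts made up 12.4% ± 4.81 in young control and 9.03% ± 4.61 in old control (SD, n = 4 each). The globin transcripts are short, with medians of 554 to 703 bases per gene, and that of Alas2 is 1964.5 bases. Pituitary marker genes summed to 56.1 to 244 CPM (reads scaled to a common library total) in acute Gly-Low and to 21.5 to 61522 in acute control, where replicates 2, 3 and 5 were high. None of the 15 hypothalamus markers was at 0 throughout a group, and their sum lay between 511 and 3983 CPM in every library. The labels do not tie libraries to single animals, so p-values measure only the spread between these libraries, which may be technical.

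Levels are given as CPM after TMM scaling over all 20 libraries. Hbb-bs was at 369, 963, 362 and 451 CPM in the 4 acute Gly-Low libraries, against 154, 172, 137, 38.5 and 105 CPM in the 5 acute control libraries. It was at 599, 1648 and 561 CPM in old Gly-Low, 476, 597, 493 and 947 CPM in old control and 37.5, 69.4, 188 and 31.8 CPM in young control. Every library of the 2 old groups and of acute Gly-Low lay above every acute and young control library. Replicate 2 of acute Gly-Low, replicate 2 of old Gly-Low, replicate 4 of old control and replicate 3 of young control were the highest of their groups.

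Hba-a1, the main alpha gene in these counts, was at 166, 395, 146 and 170 CPM in acute Gly-Low, against 89.8, 120, 95.4, 25.6 and 66.4 CPM in acute control. It was at 302, 1099 and 330 CPM in old Gly-Low, 334, 340, 302 and 671 CPM in old control and 26.2, 58.3, 161 and 25.7 CPM in young control. The same 4 libraries led their groups. The lowest acute Gly-Low library, at 146 CPM, lay below the highest young control library, at 161 CPM.

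Alas2 was at 9.74, 24.7, 12.5 and 9.69 CPM in acute Gly-Low, against 8.99, 9.68, 4.95, 2.84 and 8.43 CPM in acute control. It was at 35.1, 105 and 29.0 CPM in old Gly-Low, 24.0, 26.5, 12.0 and 59.5 CPM in old control and 1.19, 3.04, 5.44 and 2.51 CPM in young control. The 2 acute groups touched, with the lowest acute Gly-Low library at 9.69 CPM and the highest acute control library at 9.68 CPM.

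The minor copies were much lower. Hbb-bt lay between 29.3 and 88.7 CPM in acute Gly-Low and between 4.01 and 15.6 CPM in acute control, and between 37.3 and 204 CPM in old Gly-Low, 33.3 and 83.3 CPM in old control and 2.33 and 10.4 CPM in young control. Hba-a2 lay between 5.19 and 35.4 CPM in acute Gly-Low and between 1.84 and 6.94 CPM in acute control, and between 14.6 and 57.9 CPM in old Gly-Low, 16.1 and 43.2 CPM in old control and 1.14 and 8.29 CPM in young control. Hba-a2 was the 1 member whose acute groups overlapped in TMM-scaled CPM, through acute Gly-Low replicate 3.

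**Figure D1:**
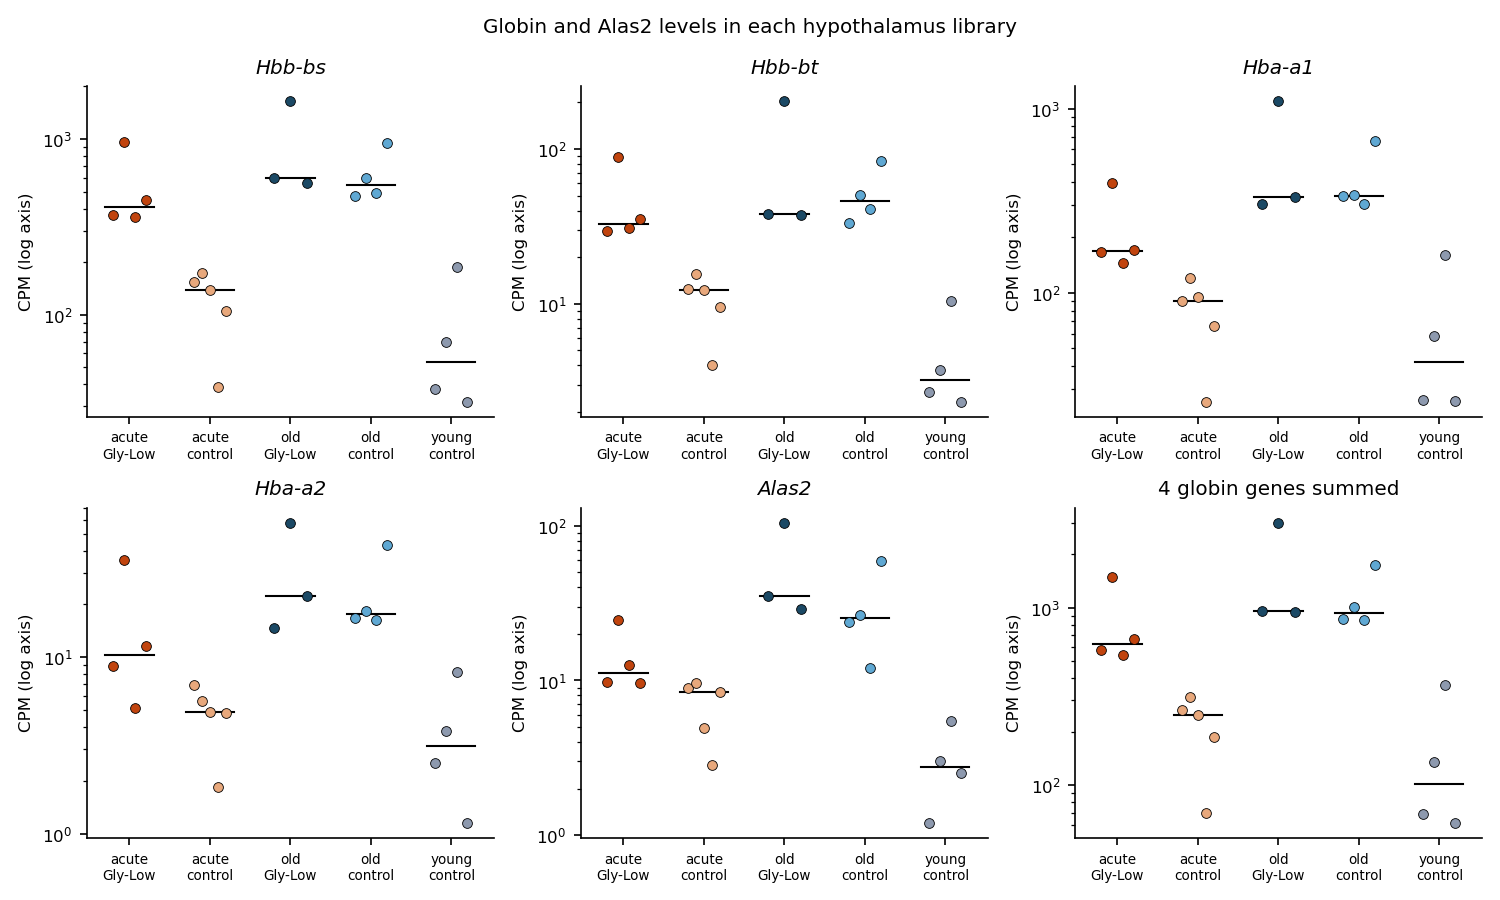
Level of each globin gene, of Alas2 and of the 4 globin genes summed in every library, in CPM on a log axis; each point is 1 library and each bar the median of its group. The old groups and acute Gly-Low sit above acute and young control for Hbb-bs, with 1 high library in acute Gly-Low (963 CPM), old Gly-Low (1648 CPM) and old control (947 CPM).

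By group means the order of levels was the same for each of the 5 genes, with old Gly-Low highest, then old control, acute Gly-Low and acute control, and young control lowest. For the 4 globin genes the top rank of old Gly-Low rested on its replicate 2. Without that library the summed globin mean of old Gly-Low was 952 CPM and each of the 4 globin genes averaged less than in old control, while Alas2 averaged 32.0 CPM in old Gly-Low and 30.5 CPM in old control. Old control kept its own high library here, replicate 4, with 1745 CPM of summed globins, against 853 to 1005 in its other libraries. In the order of all libraries by TMM-scaled CPM, acute Gly-Low and acute control were the only neighbours whose libraries did not overlap. This held for every gene but Hba-a2. The other neighbours overlapped for all 5 genes. The summed globin level averaged 817 ± 446 CPM in acute Gly-Low and 216 ± 93.6 CPM in acute control (SD, n = 4 and 5), 1638 ± 1188 CPM in old Gly-Low and 1116 ± 425 CPM in old control (n = 3 and 4), and 158 ± 144 CPM in young control (n = 4). Per kilobase of transcript, the mean level in old control was 1000.2 CPM for Hbb-bs, 589 for Hba-a1, 74.0 for Hbb-bt, 42.5 for Hba-a2 and 15.5 for Alas2.

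After 1 week of Gly-Low at 4 months of age, all 5 genes were higher than in the acute controls. Hbb-bs rose 4.41-fold by group means and Hba-a1 2.76-fold, while Alas2 rose 2.03-fold. In edgeR's quasi-likelihood test the log2 fold change was 2.16 ± 0.37 (SE; adjusted p = 0.000164) for Hbb-bs and 2.11 ± 0.37 (adjusted p = 0.000189) for Hbb-bt. It was 1.49 ± 0.36 (adjusted p = 0.00264) for Hba-a1, 1.69 ± 0.47 (adjusted p = 0.00643) for Hba-a2 and 1.04 ± 0.35 (adjusted p = 0.0200) for Alas2. With copies summed, the beta pair had 2.16 ± 0.37 (adjusted p = 0.000165) and the alpha pair 1.503 ± 0.365 (adjusted p = 0.00265). Of the 5 genes, all 5 passed the threshold of 0.05 as higher, where 27.8% of all 17161 genes tested were called higher, 30.5% lower and 58.3% in either direction. After TMM scaling the groups did not overlap for 4 of the 5 genes, all but Hba-a2, which held upward for 23.0% of all genes. By share of total counts, Hba-a1 and Alas2 overlapped too. Acute Gly-Low replicate 1 had 2732 Hba-a1 and 160 Alas2 reads of 21257077. Both were lower shares than in acute control replicate 2, with 3176 and 257 reads of 24415000. The median log2 fold change was -0.07 over all genes tested.

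The acute globin values were lower once transcript length was allowed for, Alas2 moved little under the length offset, and 2 calls rested on 1 library. With an offset that takes out each library's trend over transcript length, Hbb-bs had a log2 fold change of 1.05 ± 0.36 (adjusted p = 0.0237) and Hbb-bt 1.07 ± 0.35 (adjusted p = 0.0200). With the same offset Alas2 had 0.93 ± 0.34 (adjusted p = 0.0365), while Hba-a1 had 0.45 ± 0.35 (adjusted p = 0.309) and Hba-a2 0.48 ± 0.45 (adjusted p = 0.3995). So 3 of 5 genes were called higher there, where 25.3% of all genes were. When all 5 groups were fitted with each library's length slope as a covariate, none of the 5 genes passed, with adjusted p from 0.340 to 0.747. The log2 fold changes there had wider errors, at 1.31 ± 0.90 for Hbb-bs, 1.22 ± 0.98 for Hbb-bt, 0.57 ± 0.98 for Hba-a1, 0.68 ± 1.09 for Hba-a2 and 1.29 ± 0.91 for Alas2. A fit on all 20 libraries without the covariate already ended the call of Alas2 (1.02 ± 0.50, adjusted p = 0.0994) and kept those of the 4 globins. Without acute Gly-Low replicate 2, Alas2 (0.62 ± 0.34, adjusted p = 0.138) and Hba-a2 (0.84 ± 0.37, adjusted p = 0.0705) no longer passed, and the other 3 genes did. Without acute controls 2, 3 and 5, the libraries with pituitary transcripts, all 5 passed, with Hbb-bs at 2.45 ± 0.52 and Alas2 at 1.25 ± 0.46 (adjusted p = 0.00190 and 0.0441).

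**Figure D2:**
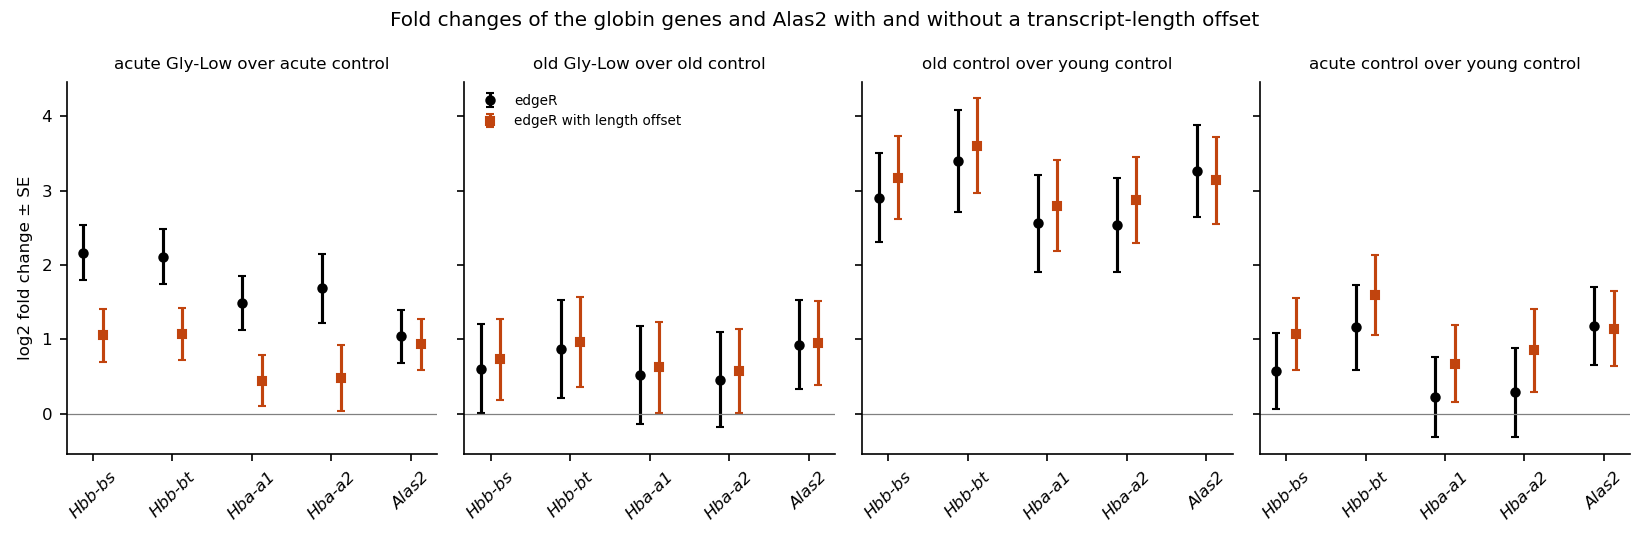
Log2 fold change (points) and its standard error (bars) of each gene in 4 comparisons, from edgeR as fitted (black circles) and with an offset for the transcript-length trend of each library (orange squares). In acute Gly-Low over acute control the offset lowers Hbb-bs to 1.05, against 2.16 without it, and leaves Alas2 at 0.93, against 1.04; in old control over young control all 5 values lie between 2.54 and 3.40 without it.

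There were fewer alpha reads per beta read in acute Gly-Low than in acute control, a difference that did not pass after adjustment. Acute Gly-Low libraries held 0.439, 0.409, 0.385 and 0.375 alpha reads per beta read, against 0.580, 0.667, 0.671, 0.646 and 0.620 in acute control. The 2 groups did not overlap. The log2 ratio of alpha to beta averaged -1.32 ± 0.10 in acute Gly-Low, against -0.65 ± 0.09 in acute control (SD, n = 4 and 5), a difference of -0.66 with a two-sided exact permutation p of 0.0159, the smallest this design allows. Adjusted over the 16 ratio tests it was 0.0847. The part of transcript-length make-up in this ratio was not tested. Alas2 reads per 1000 globin reads were 17.0, 16.7, 23.0 and 14.5 in acute Gly-Low, against 34.1, 30.9, 19.8, 40.5 and 45.3 in acute control. For this ratio the groups overlapped through acute control replicate 3, and the log2 ratio differed by -0.91 with an exact permutation p of 0.0317 (adjusted 0.102).

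Old controls had more of all 5 transcripts than young controls, and their libraries did not overlap for any of them. By group means the level in old control was 7.70-fold higher for Hbb-bs, 10.9-fold for Hbb-bt, 6.07-fold for Hba-a1 and 5.99-fold for Hba-a2 (n = 4 each), and Alas2 was at 30.5 ± 20.3 CPM in old control and 3.05 ± 1.78 CPM in young control (SD). In edgeR the log2 differences were 2.91 ± 0.60 for Hbb-bs, 3.40 ± 0.69 for Hbb-bt, 2.56 ± 0.65 for Hba-a1, 2.54 ± 0.63 for Hba-a2 and 3.27 ± 0.62 for Alas2. None passed after adjustment, with adjusted p of 0.136, 0.134, 0.210, 0.197 and 0.105 in the same order, although each unadjusted p was at most 0.00229. In that test 6 of 18281 genes (0.0328%) were called, all as higher in old control, with the 5 genes not among them. Separation of the 2 groups with old control higher held for 5 of 5 genes here and for 2.77% of all genes tested.

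In the age comparison, young control replicate 3 held the highest globin levels of the young libraries. Without it the log2 difference was 3.74 ± 0.51 for Hbb-bs, 4.14 ± 0.70 for Hbb-bt, 3.46 ± 0.58 for Hba-a1, 3.22 ± 0.64 for Hba-a2 and 3.73 ± 0.68 for Alas2, with adjusted p from 0.0684 to 0.215. Over all 8 omissions of 1 library, the lowest values were 2.65 for Hbb-bs, 3.11 for Hbb-bt, 2.26 for Hba-a1, 2.10 for Hba-a2 and 2.75 for Alas2.

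The call for age depended on the tool and on the libraries and terms in the fit. DESeq2 called all 5 genes higher in old control, with log2 differences from 2.59 to 3.45 and adjusted p from 1.23e-05 for Alas2 to 0.00345 for Hba-a1, where it called 0.848% of its genes higher. An edgeR fit on all 20 libraries in place of 11, chosen after seeing the data, called Hbb-bs (2.94 ± 0.57, adjusted p = 0.0224), Hbb-bt (3.43 ± 0.63, adjusted p = 0.0165) and Alas2 (3.31 ± 0.58, adjusted p = 0.0109), and not Hba-a1 (adjusted p = 0.0542) or Hba-a2 (adjusted p = 0.0782), where 0.367% of genes were called higher. The same 20 libraries with the slope covariate added gave all 5 as higher, from 2.94 for Hba-a1 to 3.70 for Hbb-bt, where 1.12% of genes were called higher. With the length offset on the 11 libraries, the 5 values ran from 2.80 for Hba-a1 to 3.61 for Hbb-bt and did not pass (adjusted p from 0.0801 to 0.131). Setting the old controls against the acute controls in place of the young controls, a comparison chosen after seeing the data, gave 2.37 ± 0.51 for Hbb-bs (adjusted p = 0.0501) and 2.13 ± 0.50 for Alas2 (adjusted p = 0.0709). The old control libraries held 0.690, 0.553, 0.596 and 0.693 alpha reads per beta read, against 0.714, 0.848, 0.855 and 0.787 in young control, again without overlap. The log2 ratio differed by -0.34 (exact permutation p = 0.0286, the smallest this design allows; adjusted p = 0.102).

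After 5 months of Gly-Low in old mice, none of the 5 genes was called different. The edgeR log2 differences between old Gly-Low and old control were 0.61 ± 0.60 for Hbb-bs, 0.87 ± 0.66 for Hbb-bt, 0.52 ± 0.66 for Hba-a1, 0.46 ± 0.64 for Hba-a2 and 0.93 ± 0.60 for Alas2 (adjusted p = 0.953 for each). The share of all genes called was 0% (0 of 18281; 433 had an unadjusted p under 0.05, and DESeq2 called 2). For each gene, only replicate 2 of the 3 old Gly-Low libraries lay above the highest old control library. Without it, and with the high old control replicate 4 kept, the log2 difference was -0.09 for Hbb-bs, -0.44 for Hbb-bt, -0.35 for Hba-a1, -0.32 for Hba-a2 and 0.11 for Alas2. With a block for the replicate number, the beta pair had 0.50 (adjusted p = 0.669), the alpha pair 0.33 (adjusted p = 0.808) and Alas2 1.05 (adjusted p = 0.352). That block used the numbers of the sample titles; the count table's columns number the 3 old Gly-Low libraries 1, 4 and 5, and a block on those numbers, chosen after seeing the data, gave 1.04 for the beta pair, 0.83 for the alpha pair and 1.16 for Alas2 (adjusted p = 1 for each). Since the old controls enter both this comparison and that with young controls, values of the 2 share the same libraries.

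The diet difference in the acute arm exceeded that in the old arm by 1.57 ± 0.77 for Hbb-bs (log2; adjusted p = 0.118) and by 1.25 ± 0.82 for Hbb-bt (adjusted p = 0.242). It exceeded it by 0.98 ± 0.82 for Hba-a1 (adjusted p = 0.366), 1.25 ± 0.88 for Hba-a2 (adjusted p = 0.276) and 0.13 ± 0.75 for Alas2 (adjusted p = 0.903). No member passed as larger in the acute arm, where 19.2% of all genes did. So a difference between the 2 arms in the globin response to Gly-Low was not shown. Without old Gly-Low replicate 2, Hbb-bs (2.25, adjusted p = 0.0396) and Hbb-bt (2.55, adjusted p = 0.0163) passed. Each of these 2 genes passed in only 1 of 28 alternatives. Without acute Gly-Low replicate 2, Hbb-bs had 1.10 (adjusted p = 0.268) and Hbb-bt 0.70 (adjusted p = 0.519). With the length offset, Hbb-bs had 0.46 (adjusted p = 0.684) and Hbb-bt 0.23 (adjusted p = 0.855).

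The 2 control groups of young adult mice, at 4 and 3 months, were compared as a check on the low end of the scale. Acute control was 1.49-fold higher than young control for Hbb-bs, 2.26-fold for Hbb-bt, 1.17-fold for Hba-a1, 1.23-fold for Hba-a2 and 2.29-fold for Alas2 by group means. None passed in edgeR, with log2 differences from 0.22 ± 0.54 for Hba-a1 to 1.18 ± 0.53 for Alas2 and adjusted p from 0.205 to 0.859, where 0.923% of all genes were called higher. Without young control replicate 3 the log2 differences were larger, at 1.43 for the beta pair and 1.10 for the alpha pair, and still did not pass. The alpha to beta log2 ratio averaged -0.65 ± 0.09 in acute control and -0.32 ± 0.12 in young control (SD, n = 5 and 4). That difference of -0.33 had an exact permutation p of 0.0159 and an adjusted p of 0.0847, and the groups did not overlap.

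The share of the minor copy within each pair showed no difference between groups that passed after adjustment. Hbb-bt took 7.72% ± 0.55 of the beta reads in acute Gly-Low, against 8.37% ± 0.69 in acute control (SD, n = 4 and 5; exact permutation p = 0.159), and 7.53% ± 0.68 in old control and 5.97% ± 0.92 in young control (n = 4 each; p = 0.0857). Acute control and young control did not overlap in this share, with a difference of 2.40 percentage points (exact permutation p = 0.0159, adjusted 0.0847). Old Gly-Low replicate 2 stood apart at 11.0% (95% Wilson interval 10.7% to 11.3%, counting error only), against 5.96% and 6.24% in the other old Gly-Low libraries. Hba-a2 took from 3.43% to 8.75% of the alpha reads over all libraries. Group means of that share were 5.79% in acute Gly-Low, against 6.01% in acute control, 5.30% in old Gly-Low and 5.24% in old control, and 6.00% in young control, and the 4 tests of it had exact permutation p of 0.629 or more.

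**Figure D3:**
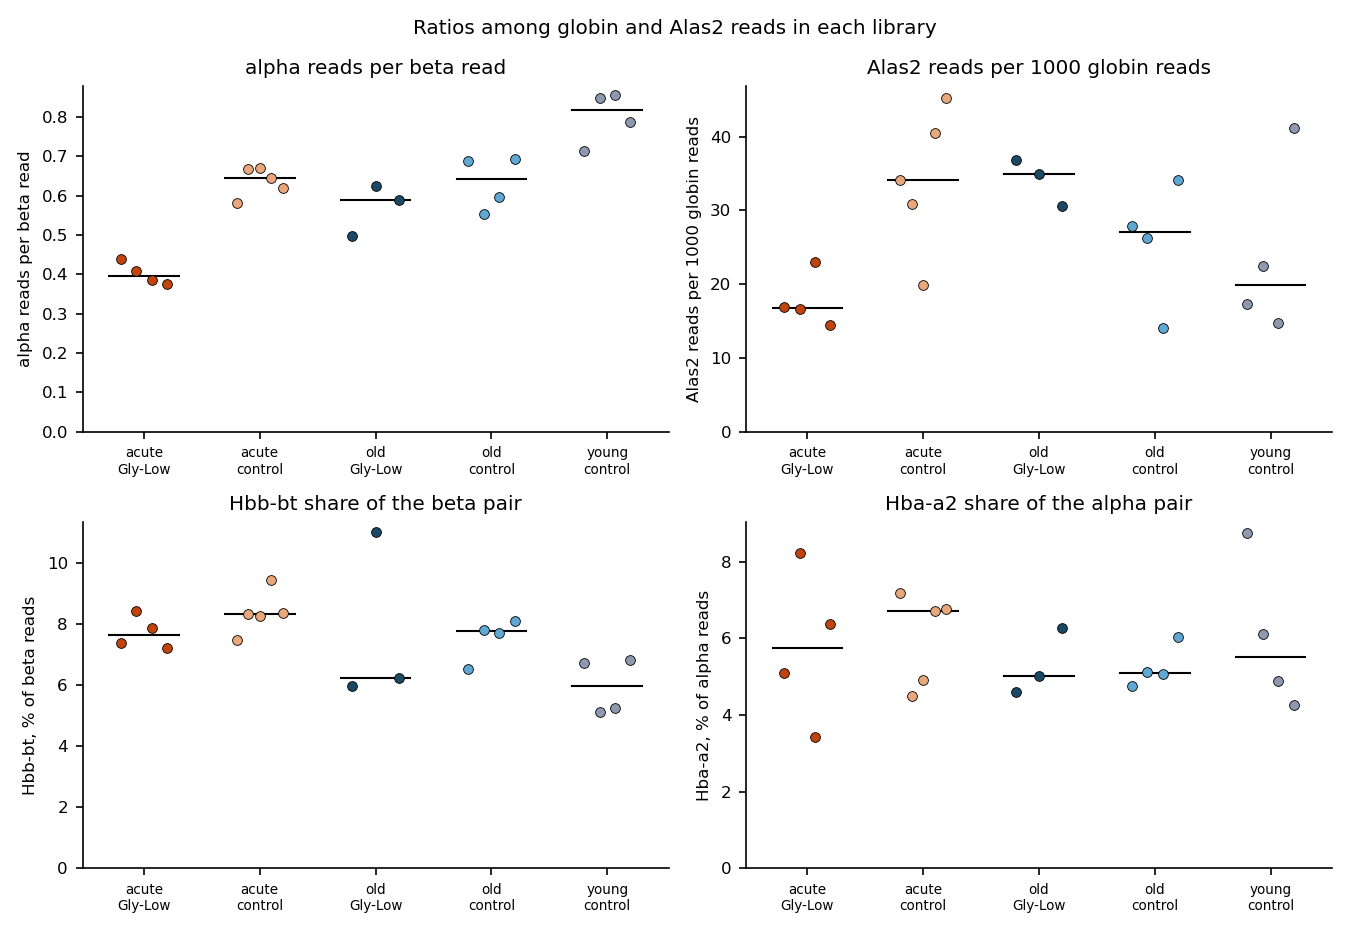
Alpha reads per beta read, Alas2 reads per 1000 globin reads, and the share of the minor copy in the beta and alpha pairs; each point is 1 library and each bar the median of its group. Acute Gly-Low lies at 0.375 to 0.439 alpha reads per beta read, below acute control at 0.580 to 0.671, and young control is highest at 0.714 to 0.855.

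Within groups the genes varied together. Levels in this paragraph were scaled by total counts alone, without TMM factors. After the mean of each group was taken out, the log2 levels of the alpha and beta pairs correlated at r = 0.991 and rho = 0.977 over the 20 libraries (permutation within groups, p = 2e-05 and 3e-05; adjusted over 3 relations, 6e-05 and 9e-05). Without young control replicate 3 and acute control replicate 4, the 2 libraries farthest from the median, r was 0.987. Alas2 followed the summed globins at r = 0.853 and rho = 0.830, and at r = 0.825 without the same 2 libraries. The length slope of a library and its globin level correlated at r = -0.155 and rho = -0.161 within groups. All values of a library share its depth and its RNA, which these figures do not separate.

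**Figure D4:**
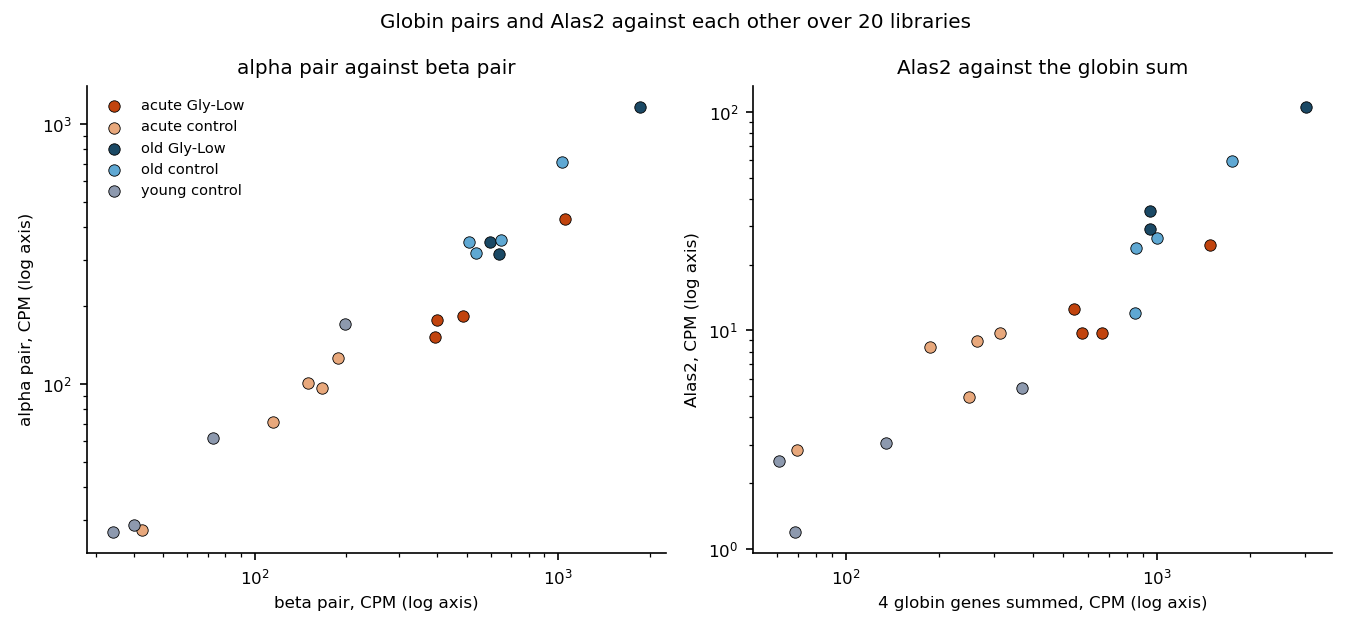
Alpha pair against beta pair (left) and Alas2 against the 4 globin genes summed (right), in CPM on log axes; each point is 1 of the 20 libraries, coloured by group. Both plots run from the young control libraries at the low end (61.1 CPM of summed globins) to old Gly-Low replicate 2 at the high end (3010 CPM), and the acute Gly-Low points lie below the trend of the others on the left.

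The genes most like the summed globins were looked for among 19061 tested genes, by the correlation of deviations from group means over the 20 libraries. The 4 globin genes (0.925 to 0.998) are parts of the sum, so their r is high by construction, and Alas2 had 0.847. After these members, the 10 nearest were Angpt2 (0.832), Mgp (0.816), Oas1g (0.806), Gm49041 (0.794), Clec3b (0.775), Isg15 (0.761), H2-Aa (0.754), Cybb (0.748), Snord104 (0.748) and Ube2l6 (0.738), with r in parentheses. Oas1g and Gm49041 were scarce, with means of 0.169 and 0.368 CPM over the 20 libraries. Angpt2 encodes an angiopoietin made by endothelium, Mgp encodes matrix Gla protein, Isg15 is an interferon-stimulated gene, H2-Aa encodes a chain of MHC class II, and Cybb encodes a subunit of the phagocyte NADPH oxidase. In acute Gly-Low, against acute control, Mgp (2.65 ± 0.31), Clec3b (1.40 ± 0.26), Isg15 (1.54 ± 0.33), H2-Aa (1.25 ± 0.40), Cybb (1.16 ± 0.42), Snord104 (2.42 ± 0.46) and Ube2l6 (0.92 ± 0.22) rose by these log2 amounts, and Angpt2 (0.37 ± 0.35, adjusted p = 0.380) did not pass. Oas1g and Gm49041 had too few reads to be tested in the acute arm. Of all genes tested there, 27.8% were called higher and 58.3% in either direction. In old against young control none of the 9 that could be tested passed. The difference was negative for Snord104 (-0.98 ± 0.63), Clec3b (-0.88 ± 0.30), Mgp (-0.82 ± 0.52), Angpt2 (-0.25 ± 0.48) and Oas1g (-0.09 ± 1.30), and positive for the other 4. Ranks among so many genes rest on 20 libraries and carry no test. The acute values of these 10 genes come from the fit without a length correction.

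The shared enzymes of heme synthesis moved in both directions in the acute arm. Of 8 such genes, 4 rose and 1 fell in acute Gly-Low, with a median log2 fold change of 0.19, where 27.8% of all genes rose and 30.5% fell. Uros (0.72 ± 0.12), Urod (0.34 ± 0.11) and Fech (0.30 ± 0.12), which encode enzymes of the middle and last steps, were among those that rose. Alas1, the ubiquitous form of the first enzyme, fell by 0.89 ± 0.18 on the log2 scale (adjusted p = 0.000621), with 17.1 ± 4.61 CPM in acute Gly-Low and 32.0 ± 3.65 CPM in acute control (SD, n = 4 and 5). In old control, Alas1 was at 27.9 ± 5.27 CPM and in young control at 36.5 ± 4.32 CPM (n = 4 each; log2 difference -0.41 ± 0.17, adjusted p = 0.512). None of the 8 passed for age, where their median was -0.25, or for the diet in old mice, where it was -0.03. Acute values of list genes, in this paragraph and those that follow, come from the fit without a length correction. Short transcripts were relatively more abundant in acute Gly-Low, and the part of transcript length in these values was not tested.

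**Figure D5:**
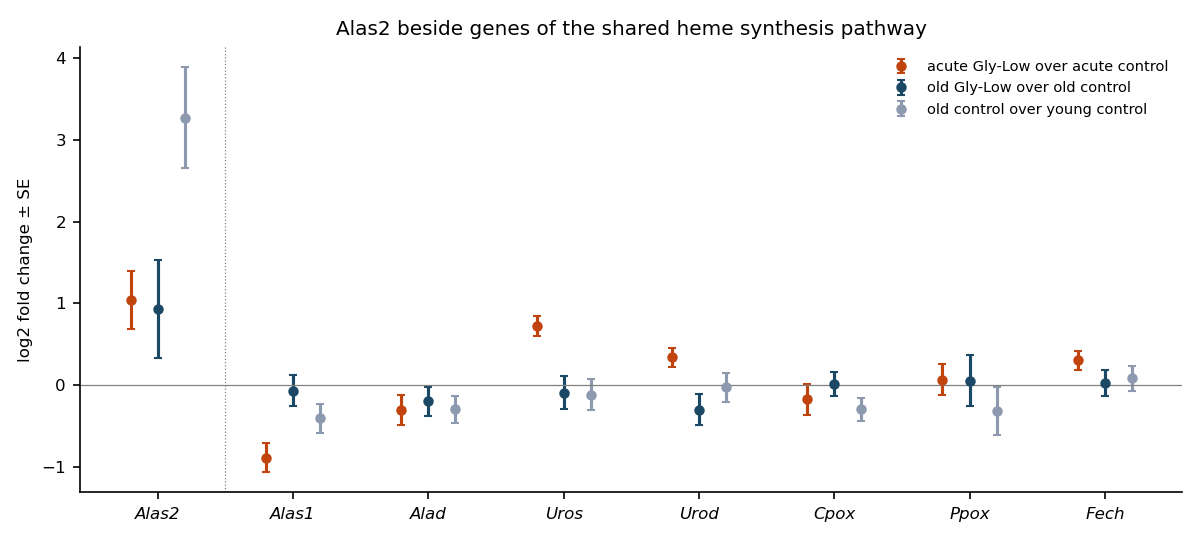
Log2 fold change (points) and standard error (bars) of Alas2 and of shared genes of heme synthesis in pathway order, for acute Gly-Low over acute control, old Gly-Low over old control, and old control over young control. Alas2 lies at 1.04, 0.93 and 3.27 in the 3 comparisons, while Alas1 lies at -0.89, -0.07 and -0.41.

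Among 18 tested genes of heme and iron transport, storage and breakdown, 8 rose and 5 fell in acute Gly-Low, beside the same 27.8% and 30.5% of all genes. In the fit without a length correction, Fth1 (1.66 ± 0.22) and Ftl1 (1.41 ± 0.18), the ferritin chains that store iron, rose. So did Blvra (1.26 ± 0.13), which turns biliverdin into bilirubin. Hmox1, the inducible heme oxygenase, rose by 0.73 ± 0.24 (adjusted p = 0.0178). Aco1, an iron-regulatory protein (-1.12 ± 0.13), and the heme exporter Flvcr1 (-0.59 ± 0.14) fell, as did the carrier gene Slc25a39 (-0.49 ± 0.11). Tfrc, the transferrin receptor, had 0.29 ± 0.20 (adjusted p = 0.225). None of these 18 passed for age or for the diet in old mice, and in acute against young control Ftl1 alone passed, at -0.94 ± 0.25 (adjusted p = 0.0382). In that comparison 1009 of all 19061 genes tested passed in either direction, and 0 did without acute controls 2, 3 and 5.

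Slc4a1, the anion exchanger of the red cell membrane, was scarce, with 12, 4, 0 and 12 reads in acute Gly-Low, against 0, 3, 0, 0 and 0 in acute control. It had 9, 100 and 33 reads in old Gly-Low, 21, 11, 0 and 114 in old control and 0, 0, 16 and 3 in young control. Its highest libraries in old Gly-Low and old control were those with the highest globin levels, replicates 2 and 4. The same held for replicate 2 of acute control and replicate 3 of young control. It did not hold in acute Gly-Low, where replicate 2 had the highest globin level and 4 reads, against 12 in replicates 1 and 4. In old against young control Slc4a1 had 2.73 ± 1.39 and did not pass in edgeR (adjusted p = 0.602).

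Of the 17 genes of the red cell membrane and skeleton, 8 could be tested in the acute arm, of which 2 rose and 5 fell, where 27.8% of all genes rose and 30.5% fell. Gypc (1.86 ± 0.28) and Cd24a (1.18 ± 0.18) rose, while the skeleton genes Add2 (-1.93 ± 0.24), Dmtn (-1.52 ± 0.18) and Epb41 (-1.26 ± 0.12), which brain cells also express, fell. Of 13 tested genes of the reticulocyte and red cell cytosol, 7 rose and 2 fell, so 9 were called, where 58.3% of all genes were called in either direction. Bpgm (1.13 ± 0.13) and Gpx1 (1.23 ± 0.14) were among those that rose, and the ubiquitin enzyme gene Ube2o (-1.22 ± 0.22) and Tent5c (-1.38 ± 0.54) fell. In old against young control none of the 13 genes tested of each list passed.

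Of the list of erythroid transcription factors and Epor, Gata1 and Gfi1b were at or near 0 and Klf1 was scarce, while Ldb1, Lmo2 and Bcl11a, which other cells also express, were not. Ldb1, Lmo2 and Bcl11a averaged 18.9, 20.1 and 6.39 CPM in acute Gly-Low, against 36.3, 14.6 and 8.90 CPM in acute control. Gata1, the main erythroid GATA factor, had no read in any acute control or young control library, where 3 reads would have been at most 0.141 and 0.189 CPM. It had at most 6 reads in a library of acute Gly-Low, 4 in old Gly-Low and 6 in old control. Klf1, the factor that binds CACCC motifs of globin promoters, had 8, 0, 0 and 0 reads in acute Gly-Low, against 0, 3, 9, 4 and 6 in acute control. It had 19, 3 and 2 reads in old Gly-Low, 0, 3, 18 and 1 in old control and 2, 4, 39 and 0 in young control, so that 1 library held most of its reads in each group but acute control. Gfi1b had no read in any library. Of 6 tested genes of the list in the acute arm, Lmo2 (0.48 ± 0.14) rose and Ldb1 (-0.92 ± 0.22) fell. Epor, the erythropoietin receptor, had 0.12 ± 0.37 (adjusted p = 0.795).

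Other globins were absent, scarce or moved in both directions. The embryonic genes Hbb-bh1 and Hba-x and the genes Hbb-bh0, Hbb-bh2 and Hbb-bh3 had no read in any library, and the embryonic Hbb-y had at most 11. Hbq1a, a theta-like globin gene, was at 2.39 ± 1.32 CPM in acute Gly-Low and 1.17 ± 0.46 CPM in acute control (SD, n = 4 and 5; adjusted p = 0.0605). It was at 0.56 ± 0.29 CPM in old Gly-Low and 1.60 ± 0.59 CPM in old control (n = 3 and 4), and the difference between arms passed in edgeR at 2.52 ± 0.73 (adjusted p = 0.0117). Ngb, the neuronal globin, rose by 0.55 ± 0.12 in acute Gly-Low (adjusted p = 0.00147), and Cygb, the cytoglobin of fibroblast-like cells, fell by 0.84 ± 0.17 (adjusted p = 0.000635). Mb, myoglobin, had 0.32 ± 0.57 (adjusted p = 0.653). None of these 3 passed for age.

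Markers of other blood and vessel cells were read beside the globins. Their counts stand against 27.8% of all genes called higher, 30.5% lower and 58.3% in either direction in the acute arm, and markers with few reads were not tested. The acute fit had no length correction, and the part of transcript length in the marker values was not tested. Platelet markers summed to 9.05 to 15.95 CPM in acute Gly-Low and 5.42 to 6.83 CPM in acute control, and of 3 tested Pf4 (2.37 ± 0.44) and Itga2b (1.03 ± 0.28) rose. Neutrophil markers summed to 3.78 to 23.4 CPM in acute Gly-Low and 0.86 to 18.5 CPM in acute control, and of 4 tested S100a9 (2.65 ± 0.74) and S100a8 (2.49 ± 0.71) rose. The other 2 had negative values that did not pass, Lcn2 (-1.64 ± 1.00, adjusted p = 0.173), which averaged 1.35 CPM in acute Gly-Low and 4.22 CPM in acute control, and Mmp9 (-0.77 ± 0.68, adjusted p = 0.346). S100a8 had 44, 25, 8 and 15 reads in acute Gly-Low, against 0, 9, 11, 6 and 4 in acute control. Its groups thus overlapped, and it entered the test mainly through acute Gly-Low. Lymphocyte and monocyte markers summed to 3.23 to 7.43 CPM in acute Gly-Low and 1.33 to 6.10 CPM in acute control, and the 2 of the 12 that had enough reads to be tested, Cd79a (3.14 ± 0.61) and Ccr2 (1.40 ± 0.43), rose. Cd79a, which had 21 to 48 reads per acute Gly-Low library and at most 10 per acute control library, entered the test through acute Gly-Low. Among those not tested, Cd79b averaged 0.29 CPM in acute Gly-Low and 0.98 CPM in acute control, and Cd4 0.045 CPM in acute Gly-Low and 0.32 CPM in acute control. Endothelial markers summed to 302 to 357 CPM in acute Gly-Low and 304 to 460 CPM in acute control, with 3 of 16 higher and 11 lower, among them Pecam1 (-2.03 ± 0.21). Mural cell markers showed 2 higher and 3 lower of 11, choroid plexus markers 3 higher and 3 lower of 9, and meningeal fibroblast markers 7 higher and 0 lower of 11, with Crabp2 at 3.23 ± 0.33.

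For age, platelet markers summed to 7.02 to 13.7 CPM in old control and 4.45 to 7.50 CPM in young control, and neutrophil markers to 5.35 to 37.6 CPM and 4.27 to 11.1 CPM in the same groups. Endothelial markers summed to 277 to 593 CPM in old control and 350 to 460 CPM in young control. No marker gene of these lists passed for age or for the diet in old mice. The part of blood or vessel content in the globin and Alas2 differences was not tested.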

How the data were processed

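The values are raw counts of reads per Ensembl gene in 20 libraries, which the authors deposited in 1 table; per the submitters' processing notes, the tools were featureCounts 1.5.0-p3, HISAT2 2.0.5 and DESeq2 1.20.0 and the build was GRCm38. Neither the labels nor these notes say how reads shared by gene copies were counted or whether strand was used. Of 54532 genes, 54409 matched the GENCODE annotation, which gave symbols, positions and transcript lengths.

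Counts were tested with edgeR 4.0.16 (quasi-likelihood F test, filterByExpr, TMM scaling, R 4.3.3), with Benjamini-Hochberg adjustment over all genes tested and a threshold of 0.05; every adjusted p of a gene comes from it unless another tool is named. The acute comparison was fitted on 9 libraries, age and the diet in old mice on 11, and the other comparisons on all 20. The counts of both copies of a globin pair were also summed into 1 row. Levels are CPM with TMM factors over 20 libraries, except in the 3 relations over libraries, where they were scaled by total counts alone. Ratios and shares were tested with two-sided exact permutation tests (scipy 1.17.1), adjusted over 16 tests, with 0.5 added to the Alas2 count. Alternatives were DESeq2 1.42.0, other scalings and filters, no mitochondrial transcripts, corrections for transcript length, other sets of libraries and a replicate block. The pipeline was tested on simulated data.

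The members and gene lists were chosen with earlier results of these data known. Besides the members, the text names up to 3 genes per list and direction with the smallest p, some genes fixed by name, and the 10 genes most like the globins; Gfi1b, Bcl11a, Cd79b, Cd4, Lcn2, Mmp9 and the embryonic globin genes fall outside this rule and were named after their values were seen. Of 195 list genes 194 matched; Ahsp did not. Results of some list genes are not reported here. By the numbers of the titles, same-numbered old Gly-Low and old control libraries deviated together, at correlations of 0.42, 0.27 and 0.25; in the other comparisons at least 1 pair was under 0.1. The column names number the old Gly-Low libraries 1, 4 and 5, which leaves 2 pairs, at 0.42 and -0.44, so which libraries are paired, if any, is uncertain. No 2 libraries held the same values. Total counts of 15848372 to 27399753 set a precision that intervals and floors express as counting error only.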

Additional observations from a re-analysis of the deposited data

Results flagged for a closer look

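In 7 of 40 sets of values of 1 group, 1 library lay far from the others of its group by Dixon's test; chance gives this in about 1 of 20 sets, and the values of 1 library are not independent of each other. Acute Gly-Low replicate 2 was at 963 CPM for Hbb-bs, with the other 3 libraries at 362 to 451, at 88.7 CPM for Hbb-bt, with the others at 29.3 to 35.1, and at 395 CPM for Hba-a1, with the others at 146 to 170. Its summed globin level was 1482 CPM, against 544 to 668 in the other acute Gly-Low libraries. Old control replicate 4 was at 671 CPM for Hba-a1, with the other 3 at 302 to 340, and at 43.2 CPM for Hba-a2, with the others at 16.1 to 18.3. Its summed globin level was 1745 CPM, against 853 to 1005 in the other old control libraries. Old Gly-Low, with 3 libraries, was not examined in this way.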

How the results depend on the processing

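All values here are log2 differences or counts of genes past the threshold unless named otherwise. In the acute arm, the length slope covariate left 3807 genes, with 1.29 for Alas2, 1.29 for the beta pair and 0.57 for the alpha pair, none past the threshold; the length offset gave 0.39 for the alpha pair, and a fit on all 20 libraries 1.02 for Alas2, both not past it. For age, 6 genes passed as fitted, against 301 with DESeq2, 11 with no filter, 2 without young control 2 and old control 3, 120 with all 20 libraries in the fit, 413 with the slope covariate added to those 20 libraries, 0 with only the groups compared and 70 with acute controls as the young group. The age difference passed with DESeq2 for Alas2 (3.32), the beta pair (2.98) and the alpha pair (2.61), and with the slope covariate on all 20 libraries (3.20, 3.28 and 2.94 in the same order); with all 20 libraries alone it passed for Alas2 (3.31) and the beta pair (2.98) and not for the alpha pair (2.60). For the diet in old mice DESeq2 called 2 genes. Between acute and young control, 1009 genes passed as fitted, against 1641 with DESeq2, 306 with the length offset, 402 without young control 2 and old control 3, 3 with only the groups compared, and 0 each with the replicate block, with the slope covariate and without acute controls 2, 3 and 5; without those 3 libraries Hba-a1 had -0.23 and the alpha pair -0.21. Between arms, 6859 genes passed as fitted, against 4112 with the length offset, 4506 without acute controls 2, 3 and 5, and 1718 with the slope covariate; Hba-a1 had -0.055 and the alpha pair -0.11 with the offset, and Hba-a1 had -0.035 and the alpha pair -0.030 with the slope covariate. The cause of these changes was not tested. The replicate block, by title numbers or by column names, changed no call of a member or pair; in the acute arm it left 8583 genes and for age 7.

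Leaving out 1 library at a time gave 0.62 to 1.18 for Alas2 in the acute arm. For age it left 0 to 6 genes. For the diet in old mice it gave -0.088 to 0.85 for Hbb-bs, -0.44 to 1.22 for Hbb-bt, -0.35 to 0.82 for Hba-a1, -0.32 to 0.88 for Hba-a2, -0.11 to 0.88 for the beta pair and -0.35 to 0.82 for the alpha pair. Between acute and young control it left 0 to 3957 genes, with -0.048 to 1.11 for Hba-a1, -0.029 to 0.97 for Hba-a2 and -0.046 to 1.10 for the alpha pair. Between arms it gave -0.42 to 0.94 for Alas2 and 1.07 to 2.27 for the beta pair. In percentage points, the Hbb-bt share ran from -1.43 to 1.10 for the diet in old mice, and the Hba-a2 share from -1.04 to 0.56 for the acute diet, -1.34 to 0.16 for age, -0.44 to 0.40 for the diet in old mice (-0.0068 without young control 2 and old control 3) and -0.58 to 0.92 between acute and young control. The log2 ratio of Alas2 to globins ran from -0.069 to 0.42 for age.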
